A study of Homo sapiens with 60 samples.

Results

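The AP-1 genes described here are JUN, JUNB and JUND of the Jun family and FOS, FOSL1 and FOSL2 of the Fos family. The members were chosen by name, and every deposited peak that touched 1 of these 6 genes or the 25 kb on each side of it was taken, on GRCh37. This gave 675 of 507426 deposited peaks and 252 of 152651 called peaks over 24 peak lists. No cutoff on a measured value picked the genes, but they were chosen with earlier results of these data known.

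AP-1 is a transcription factor made of pairs of basic leucine zipper proteins. Jun proteins pair with each other or with Fos proteins, whereas Fos proteins need a Jun partner to bind DNA. Several of these genes are immediate early genes, switched on within minutes of growth factor signalling through the MAPK cascade downstream of receptors such as EGFR, and JUN can act on its own promoter.

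The cells were PC9, a human lung adenocarcinoma line that depends on a mutant EGFR. The 6 groups were Rescue cells under osimertinib, untreated Rescue cells, KO cells under osimertinib, untreated KO cells, WT cells under osimertinib and untreated WT cells. KO cells were METTL7A knockouts, and Rescue cells were the same knockouts made to overexpress METTL7A with MYC and FLAG tags, so they carry the deletion too. Osimertinib, an EGFR inhibitor, was raised in steps from 100 nM during 6 to 8 weeks, so the drug and the time in culture cannot be told apart, and cells that survived such selection are compared with cells that had none. Whether the KO line was 1 clone is not given in the sources used here. METTL7A was not measured in these lists.

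CUT&RUN tethers a nuclease to an antibody, so that DNA beside the bound protein or mark is cut free and sequenced. The antibodies were against H3K27Ac, an acetylated histone mark of active promoters and enhancers, RAD21, a core subunit of the cohesin ring, PDS5A, a regulator that sits on cohesin, and IgG, the background control. Each of the 24 lists joined 2 replicates, so 48 of the 60 samples stood behind them. The 12 samples with an H2A antibody were not analysed here. A called peak had a global IDR of 0.05 or less, the irreproducible discovery rate that measures how well its rank agrees between replicates. Near the genes the lowest called −log10 IDR was 1.304 and the highest uncalled one was 1.286. Each peak also carried the −log10 p of the first and of the second replicate in its file, the authors' own values, and its percentile is the place of the lower one within its own list. These values were set by the depth and background of each list, so they rank peaks inside a list and do not measure change between lists. Each list holds only peaks matched between its replicates, and a −log10 p depends on a depth that is not known. For these reasons no test between groups was run. Exact 95% binomial intervals, which cover counting error only, stand beside the shares. They treat peaks as separate draws, although a site called in both lists counts once in each. Shared sites of this kind draw a share towards an even split, so the intervals are a rough guide only.

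RefSeq's promoter table, on GRCh38.p14, matched 5 of the 6 genes; FOSL1 is named only. The 250 bases before the start site are shown for 3 members, JUN and JUND because each held a searched motif, in capitals, and FOS because its start site carried the highest H3K27Ac values of the set in 5 of 6 lists. They are JUN at chr1:58784048-58784297 on the minus strand, JUND at chr19:18281623-18281872 on the minus strand and FOS at chr14:75278578-75278827 on the plus strand.
JUN: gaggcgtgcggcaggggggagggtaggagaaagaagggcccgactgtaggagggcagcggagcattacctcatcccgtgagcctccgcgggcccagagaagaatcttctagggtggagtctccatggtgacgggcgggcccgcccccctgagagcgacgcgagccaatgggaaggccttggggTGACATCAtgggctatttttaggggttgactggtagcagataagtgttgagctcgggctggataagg
JUND: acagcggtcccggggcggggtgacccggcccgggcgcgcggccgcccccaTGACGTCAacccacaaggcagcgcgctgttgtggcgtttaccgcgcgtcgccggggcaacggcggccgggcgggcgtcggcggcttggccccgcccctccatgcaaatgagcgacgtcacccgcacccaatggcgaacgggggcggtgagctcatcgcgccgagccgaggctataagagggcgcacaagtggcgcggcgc
FOS: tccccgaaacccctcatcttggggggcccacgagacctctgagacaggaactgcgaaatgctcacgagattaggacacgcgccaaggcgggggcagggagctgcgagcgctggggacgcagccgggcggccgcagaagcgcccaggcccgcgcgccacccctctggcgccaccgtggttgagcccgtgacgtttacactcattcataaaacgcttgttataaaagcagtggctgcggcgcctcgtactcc
JUN held TGACATCA, known as a site for Jun and ATF2 pairs in this promoter, at −67 to −60 from the start site, a match found on either strand in 2.37% of 35116 promoter windows of the same length. JUND held TGACGTCA, the cyclic AMP response element, at −200 to −193, a match found in 1.65% of them. TGACTCA, the classical AP-1 site, was found in 4.2% of windows and the core letters of the serum response element in 0.0313%, and neither was in these letters of the 5 members matched. The FOS, JUNB and FOSL2 windows held none of the motifs searched. Letters more than 250 bases before the start site were not searched. The absence of a motif here therefore does not mean that the promoter lacks it. A match describes the letters only, and binding of AP-1 itself was not measured here.

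The 18 H3K27Ac, RAD21 and PDS5A lists held 251 called peaks of 619 deposited near the 6 genes. For H3K27Ac 102 of 237 were called (43.0%, against 26.6% of all deposited H3K27Ac peaks), for RAD21 77 of 182 (42.3%, against 35.5%) and for PDS5A 72 of 200 (36%, against 32.6%). The near-gene share lay above that of the whole list in 17 of 18 lists, the exception being PDS5A in WT cells under osimertinib, with 32.6% near the genes and 36.1% in the list. IgG had 1 called peak of 56 near the genes, against 3.02% of all deposited IgG peaks. Called H3K27Ac peaks near the genes had a median width of 2487 to 3014 bp by list, against 1454 to 1672 bp for all called H3K27Ac peaks. The windows were also built around genes, whereas the lists hold peaks from everywhere. The part of peak width and place in these called shares was not tested.

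FOS had the highest share of its deposited peaks called over the 18 lists, 67 of 121 (55.4%). JUNB had 68 of 154 (44.2%), FOSL1 51 of 119 (42.9%), FOSL2 33 of 94 (35.1%), JUN 13 of 42 (31.0%) and JUND 19 of 89 (21.3%). The windows do not all hold the same amount of other genes. In RefSeq, JUN, FOS and FOSL2 had no protein-coding neighbour inside the window, JUNB and JUND had 4 each and FOSL1 had 7, among them MUS81, CTSW, FIBP and DRAP1. A peak in those windows is therefore near an AP-1 gene without being assigned to it.

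**Figure D1:**
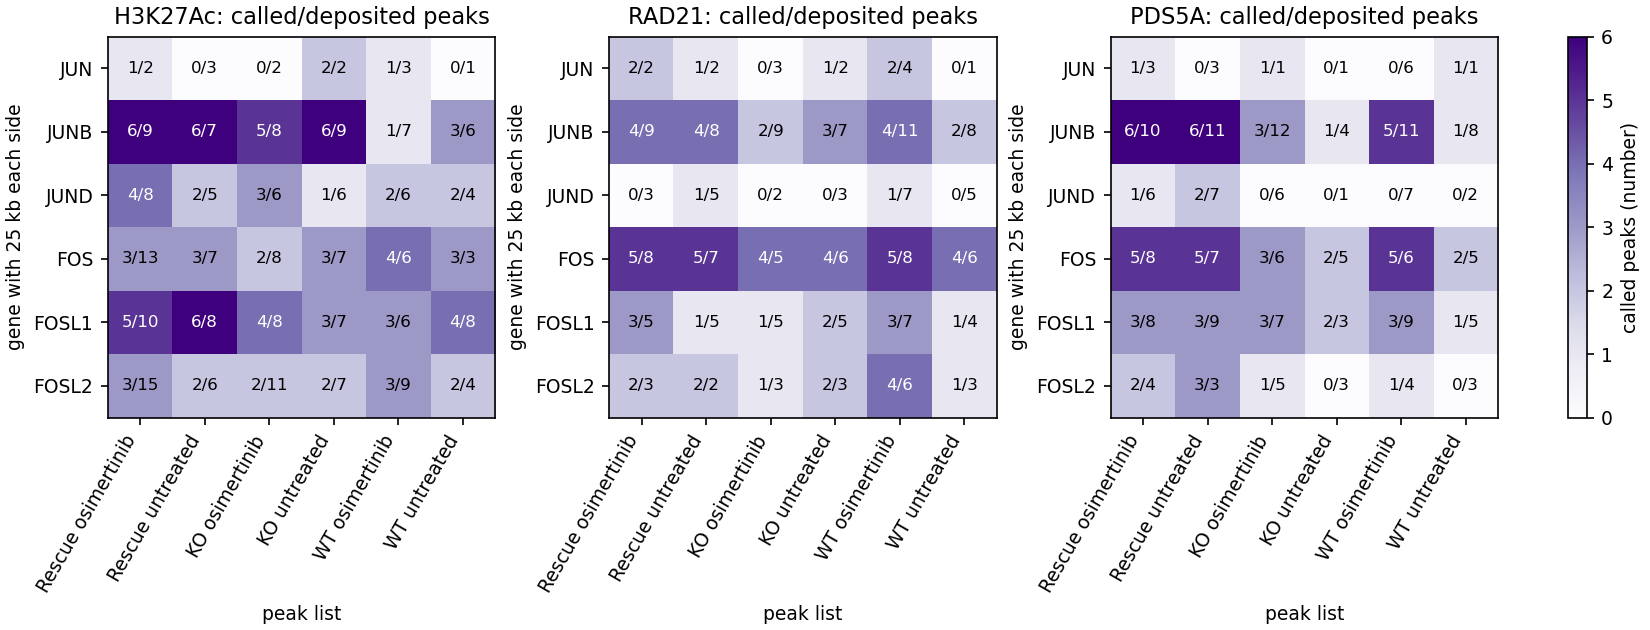
Called and deposited peaks near each AP-1 gene. Each cell gives called over deposited peaks for 1 gene (rows) in 1 peak list (columns), for H3K27Ac, RAD21 and PDS5A, and darker cells hold more called peaks. FOS kept 4 or 5 called RAD21 peaks in every list, whereas JUNB had 6 called H3K27Ac peaks in Rescue cells and in untreated KO cells but 1 in WT cells under osimertinib.

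Start sites separated the genes further. H3K27Ac was called on the start site in 6 of 6 lists for JUND, FOS and FOSL1, in 5 for JUNB, 4 for FOSL2 and 3 for JUN. RAD21 was called on the FOS and FOSL2 start sites in 6 lists, on that of JUN in 4 and that of JUNB in 2, and on those of JUND and FOSL1 in 0. PDS5A was called at FOS in 4 lists, at JUN, JUNB and FOSL2 in 3 each, at JUND in 1 and at FOSL1 in 0. The uncalled start sites were seldom empty. Over all genes and lists, 30 of 36 start sites had a called and 36 a deposited H3K27Ac peak, 18 had a called and 33 a deposited RAD21 peak, and 14 had a called and 33 a deposited PDS5A peak. IgG had 1 called and 10 deposited, and each of the 6 start sites met a deposited IgG peak in at least 1 list. In treated WT cells all 6 start sites met one, and in untreated WT cells none did. The treated WT IgG list was also longer, with 7612 deposited peaks against 1057 untreated, so this background differed between the treatments compared.

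**Figure D2:**
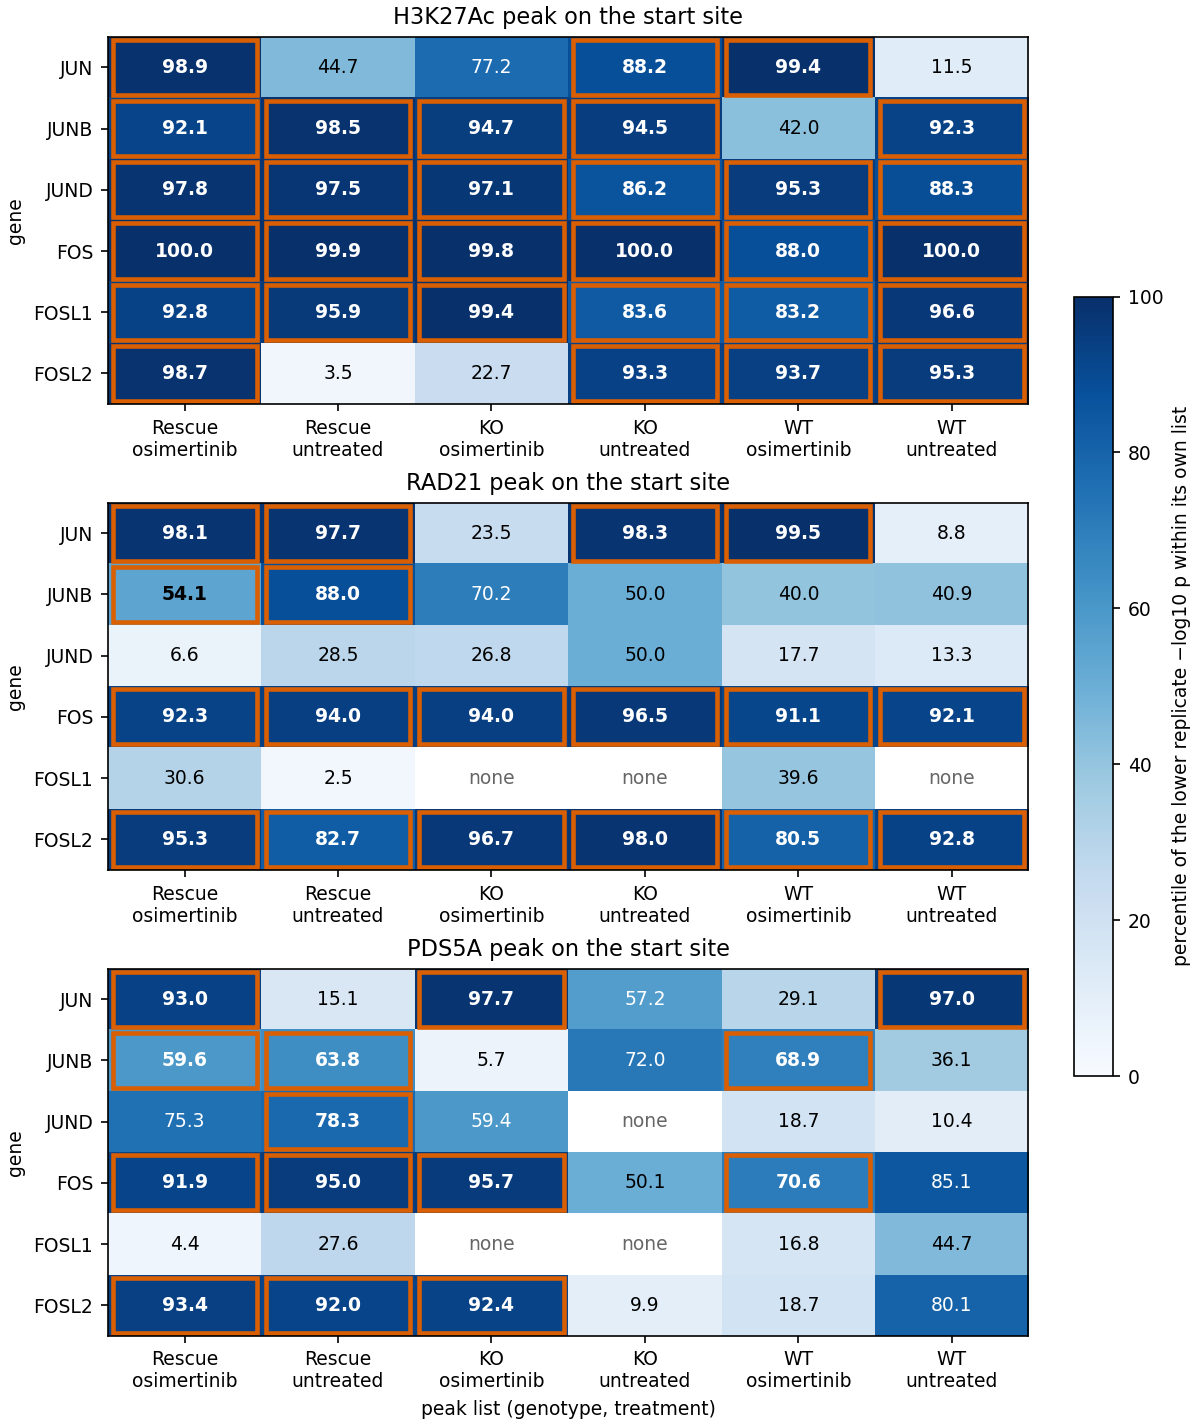
Peaks on the start site of each AP-1 gene. Each cell gives the percentile of the lower replicate −log10 p within its own list (darker is higher) for 1 gene and 1 list, a frame marks a called peak, and "none" marks no deposited peak. FOS H3K27Ac stands at 99.8 or above in 5 lists and at 88.0 in WT cells under osimertinib, and JUN moves between 11.5 and 99.4.

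JUN, the founding Jun protein, had a start-site peak of each antibody in all 6 lists, but no antibody was called there in all of them. For H3K27Ac the first and second replicate −log10 p were 57.3 and 99.4 in Rescue cells under osimertinib, 43.5 and 7.5 in untreated Rescue cells, 11.1 and 36.8 in KO cells under osimertinib, 31.2 and 14.9 in untreated KO cells, 35.7 and 49.6 in WT cells under osimertinib and 17.6 and 4.5 in untreated WT cells. The peak was called in treated Rescue, untreated KO and treated WT cells. Untreated KO cells had a further called peak just before the start site, at −2.0 to −0.2 kb, with 46.4 and 23.7. In Rescue and WT cells the start-site peak was thus called under osimertinib and not without it, and in KO cells the other way round. Deposited IgG peaks lay on this start site in treated WT (10.8 and 4.6) and treated KO cells (6.7 and 4.8) and in no other list. The percentile of the H3K27Ac start-site peak was 99.4 in treated and 11.5 in untreated WT cells, where the replicates of the untreated list were far apart.

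RAD21 at the JUN start site had values of 133.4 and 61.5 in Rescue cells under osimertinib, 80.3 and 56.3 in untreated Rescue cells, 36.7 and 5.4 in treated KO cells, 57.4 and 44.8 in untreated KO cells, 207.0 and 107.0 in treated WT cells and 75.9 and 4.2 in untreated WT cells. It was called in all but treated KO and untreated WT cells, the 2 lists in which the second replicate was low. PDS5A there had 119.6 and 32.8 in treated Rescue, 42.8 and 5.4 in untreated Rescue, 27.9 and 37.4 in treated KO, 7.0 and 18.5 in untreated KO, 142.8 and 6.7 in treated WT and 31.6 and 25.3 in untreated WT cells. Its calls, in treated Rescue, treated KO and untreated WT cells, did not follow those of RAD21. The first replicate was the higher one in 10 of these 12 RAD21 and PDS5A peaks, and in several lists the medians of the replicates were unequal as well, at most 3.12-fold.

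A smaller RAD21 peak lay 14.4 to 15.2 kb past the JUN start site, beyond the end of the gene, at chr1:59234574-59235352 on GRCh37. It was called under osimertinib in Rescue cells (19.65 and 14.98) and in WT cells (21.5 and 15.8), and neither untreated list held a deposited peak there. KO cells had a deposited but uncalled peak in both treatments, with 8.18 and 5.75 under osimertinib and 6.88 and 7.43 untreated. It met no IgG peak.

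**Figure D3:**
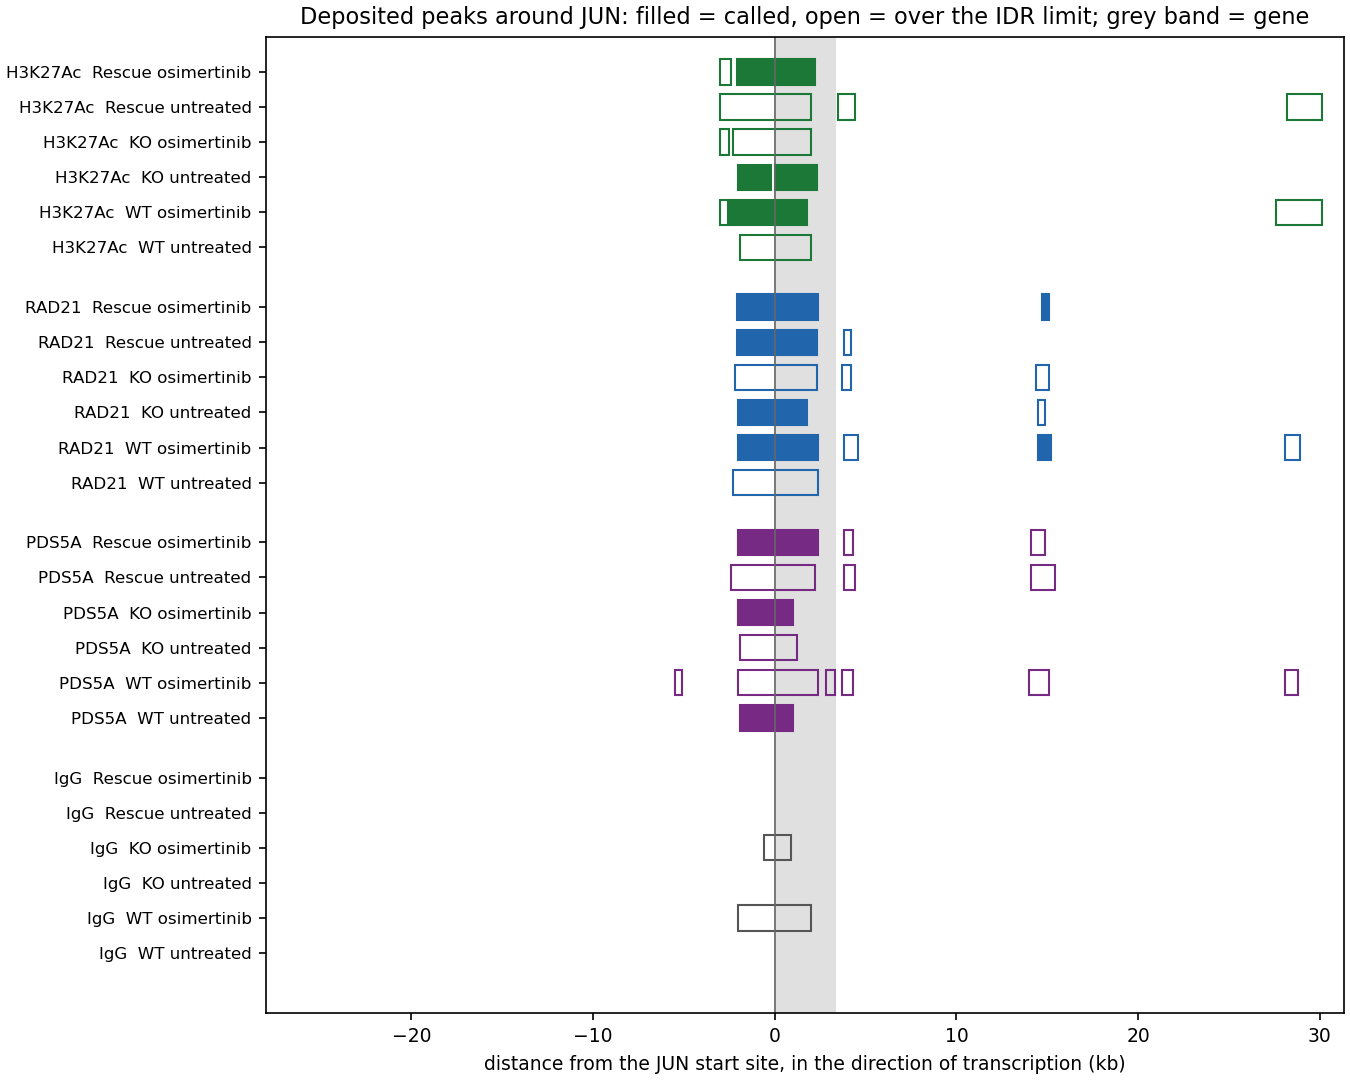
Deposited peaks around JUN. The x axis is the distance from the JUN start site in kb in the direction of transcription, each row is 1 peak list, filled bars are called peaks, open bars are peaks over the IDR limit and the grey band is the gene. Called peaks lie on the start site, just before it at −2.0 to −0.2 kb for H3K27Ac in untreated KO cells, and, for RAD21 in treated Rescue and treated WT cells, 14.4 to 15.2 kb past it.

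JUNB, a Jun protein that can restrain JUN on some targets, had its start site inside a broad acetylated stretch. The H3K27Ac site spanned −9.9 to 3.6 kb when peaks of the 6 lists were merged, and in untreated Rescue cells 1 peak of 11360 bp reached from −9.8 to 1.5 kb. The start-site values were 27.9 and 53.4 in Rescue cells under osimertinib, 48.3 and 48.2 in untreated Rescue cells, 22.5 and 32.5 in treated KO cells, 29.7 and 21.1 in untreated KO cells, 6.7 and 39.5 in treated WT cells and 21.2 and 29.5 in untreated WT cells. Only the treated WT list did not call it. In the whole JUNB window treated WT cells had 1 called H3K27Ac peak of 7 deposited, whereas untreated WT cells had 3 of 6.

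The JUNB site that all 6 lists called was RAD21 downstream of the gene, 4.2 to 5.7 kb from the start site at chr19:12906533-12908029, with no IgG peak on it. Its values were 113 and 69.3 in treated Rescue, 176 and 55.7 in untreated Rescue, 30.4 and 44.2 in treated KO, 74.9 and 39.7 in untreated KO, 64.6 and 34.5 in treated WT and 104 and 14.1 in untreated WT cells. PDS5A was called at the same place in 5 lists and missed in untreated WT cells, where it had 11.7 and 36.7. Upstream, at −14.2 to −12.1 kb, RAD21 was called in 5 lists and missed in treated KO cells alone, with 10.6 and 6.46 there against 35.9 and 27.9 in treated Rescue and 47.5 and 24.04 in treated WT cells. PDS5A at −17.1 to −15.3 kb was called in both Rescue and both WT lists and in neither KO list. Its KO values were 4.68 and 40.7 under osimertinib and 7.03 and 27.2 untreated, so the second replicates lay within the 16.4 to 53.0 of the lists that called it. That position also met a deposited IgG peak.

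JUND, the Jun protein that is expressed most steadily in many cells, was acetylated at its start site in every list and carried little called cohesin. H3K27Ac had 46.6 and 75.2 in treated Rescue, 42.0 and 43.5 in untreated Rescue, 37.2 and 27.03 in treated KO, 40.8 and 14.1 in untreated KO, 22.1 and 44.3 in treated WT and 17.6 and 34.1 in untreated WT cells, at percentiles of 86.2 to 97.8. RAD21 at the start site stayed at or below percentile 50 in all 6 lists. PDS5A was called there only in untreated Rescue cells, with 24.9 and 19.9. A distal H3K27Ac site at −25.4 to −21.1 kb was called under osimertinib in all 3 genotypes and without it only in WT cells. It had 26.5 and 18.8 in treated Rescue against 39.9 and 15.4 in untreated Rescue cells, and 19.9 and 14.7 in treated KO against 9.7 and 23.9 in untreated KO cells. In Rescue cells the lower replicate value was thus 18.8 with the call and 15.4 without it.

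FOS, the archetypal immediate early gene, had the highest start-site H3K27Ac values of the 6 genes in 5 of 6 lists, treated WT cells being the exception. In that list JUN (percentile 99.4), JUND (95.3) and FOSL2 (93.7) stood above FOS (88.0). Its start-site site spanned chr14:75743021-75746438, −2.5 to 1.0 kb. The values were 140.3 and 127.8 in Rescue cells under osimertinib, 90.7 and 98.3 in untreated Rescue cells, 87.5 and 53.4 in treated KO cells, 110.4 and 110.5 in untreated KO cells, 15.7 and 33.3 in treated WT cells and 114.0 and 108.1 in untreated WT cells. The treated WT list stood apart, with both replicates below those of the other 5 lists. By its lower value this peak ranked 16 of 45234 in treated Rescue, 28 of 39505 in untreated Rescue, 74 of 39192 in treated KO, 5 of 23681 in untreated KO, 5294 of 44124 in treated WT and 5 of 22625 in untreated WT cells. The lists differ in length and depth, so these ranks show where the peak stood in each and not how much acetylation it carried.

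Low places of this kind were common in the treated WT list. Of the 100 H3K27Ac peaks with the highest lower value in untreated WT cells, 99 met a deposited peak in treated WT cells, at a median percentile of 97.9, and for 32 of the 100 it stood at or below the 88.0 of FOS. The same look at the top 100 peaks of untreated KO cells gave a median of 99.4 in treated KO cells, where FOS stood at 99.8, and of untreated Rescue cells 99.6 in treated Rescue cells, where FOS stood at 100.0. The low place of the FOS start site in treated WT cells was therefore shared by many peaks that stood highest in untreated WT cells. This look was chosen after the FOS values were seen.

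In treated WT cells the highest H3K27Ac peak near FOS lay upstream instead, at −20.7 to −18.9 kb, with 36.7 and 65.8 and a percentile of 99.5. This peak met a deposited IgG peak of the same cells, and the part of background in it was not tested. That upstream site, −21.6 to −17.5 kb over all lists, was called in both WT lists, in untreated Rescue cells (42.9 and 58.6) and in untreated KO cells (52.5 and 36.4), and lost its call under osimertinib in the Rescue and KO genotypes. The replicates disagreed in both lists that lost it, with 71.7 and 5.4 in treated Rescue and 4.78 and 43.7 in treated KO cells. Both replicates of treated WT cells also had an H3K27Ac peak at −12.6 to −10.4 kb, with 18.9 and 20.5, that no other list called and that untreated WT cells lacked.

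Cohesin around FOS was the steadiest of the set. A site 14.6 to 18.1 kb past the start site was called for H3K27Ac, RAD21 and PDS5A in all 18 lists. RAD21 there, at chr14:75760142-75763495, had 221 and 120 in treated Rescue, 293 and 165 in untreated Rescue, 54.0 and 82.4 in treated KO, 157 and 76.5 in untreated KO, 219 and 140.0 in treated WT and 44.0 and 51.3 in untreated WT cells, always at percentile 99.4 or above. All 6 lists thus placed this peak among their highest. PDS5A had 194 and 79.4 in treated Rescue, 170 and 116 in untreated Rescue, 26.5 and 102 in treated KO, 20.1 and 62.4 in untreated KO, 92.5 and 107 in treated WT and 14.6 and 62.2 in untreated WT cells. This site met deposited IgG peaks in 3 lists. RAD21 was called in all 6 lists at 24.2 to 25.4 kb and at 27.9 to 29.8 kb too, and PDS5A at 27.6 to 29.7 kb, and these met no IgG peak. At 24.1 to 26.4 kb PDS5A was called in treated Rescue (89.6 and 20.3) and treated WT cells (43.5 and 34.3) and in none of the other 4 lists.

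At the FOS start site itself RAD21 was called in every list, with 48.5 and 33.8 in treated Rescue, 36.4 and 49.1 in untreated Rescue, 21.5 and 35.1 in treated KO, 36.7 and 33.0 in untreated KO, 58.5 and 33.1 in treated WT and 28.8 and 16.4 in untreated WT cells. PDS5A was called under osimertinib in all 3 genotypes, with 71.5 and 30.3 in Rescue, 22.8 and 25.5 in KO and 62.5 and 14.3 in WT cells. Without osimertinib it was called in Rescue cells (41.2 and 55.2) and not in KO (6.7 and 32.3) or WT cells (17.2 and 13.7). In WT cells the lower replicate was 14.3 with the call and 13.7 without it. The one called IgG peak of the set also lay here, in treated Rescue cells, with 18.1 and 13.3 at percentile 98.3 of that list.

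**Figure D4:**
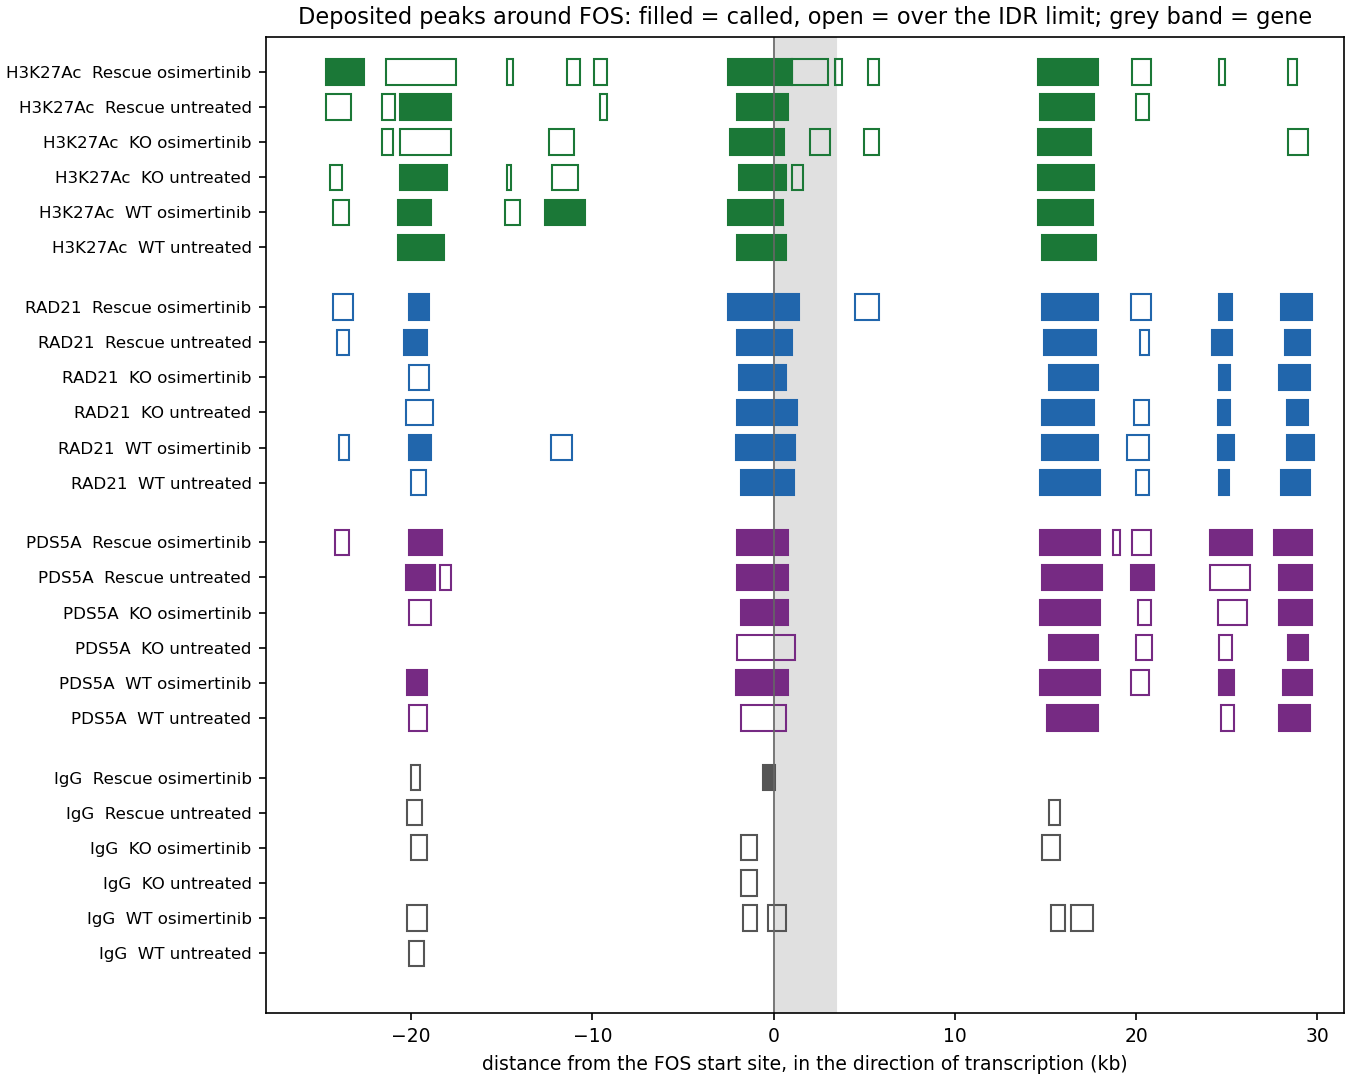
Deposited peaks around FOS. The x axis is the distance from the FOS start site in kb in the direction of transcription, each row is 1 peak list, filled bars are called peaks, open bars are peaks over the IDR limit and the grey band is the gene. The start site and the site 14.6 to 18.1 kb past it carry H3K27Ac and RAD21 calls in all 6 lists, and the IgG rows show deposited peaks at the same places.

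FOSL1, also called FRA1, is a Fos protein known for high levels in invasive and RAS-driven cancer cells. Its start site was acetylated in every list and held no called cohesin. H3K27Ac had 29.3 and 41.7 in treated Rescue, 42.8 and 37.1 in untreated Rescue, 50.9 and 40.5 in treated KO, 28.3 and 13.2 in untreated KO, 13.8 and 48.0 in treated WT and 28.0 and 31.0 in untreated WT cells. No RAD21 peak lay on the start site in either KO list or in untreated WT cells, and no PDS5A peak in either KO list. Within 1 kb, uncalled RAD21 peaks were deposited in both KO lists and an uncalled PDS5A peak in treated KO cells. Called cohesin lay past the start site instead: PDS5A at 11.1 to 13.0 kb was called in all 6 lists, and RAD21 at 11 to 13.0 kb in 5, with 139 and 71.7 in treated WT against 58.9 and 6.71 in untreated WT cells. This stretch lies beyond the end of FOSL1, in a window that holds other genes.

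A further FOSL1 RAD21 site, 15.2 to 16.2 kb past the start site at chr11:65651835-65652823, was called in treated Rescue (51.8 and 11.7), treated WT (65.9 and 35.3) and untreated WT cells (30.3 and 11.6). Treated KO cells had no deposited peak there, and it met no IgG peak. PDS5A at the same place was called in treated Rescue (64.6 and 16.2), untreated Rescue (50.7 and 22.1) and treated WT cells (56.8 and 33.2), and was deposited but not called in treated KO cells (10.9 and 17.8). RAD21 at 7.3 to 10.9 kb was called without the drug in KO cells alone. The calls were in treated Rescue (39.0 and 27.2), untreated KO (23.3 and 19.6) and treated WT cells (63.0 and 27.7). In treated KO cells the peak was deposited but uncalled, with 4.58 and 8.89.

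FOSL2, also called FRA2, the longest of the 6 genes, had RAD21 on its start site in every list. The values were 98.5 and 42.3 in treated Rescue, 64.9 and 21.1 in untreated Rescue, 26.95 and 42.4 in treated KO, 51.0 and 41.4 in untreated KO, 52.5 and 21.1 in treated WT and 55.7 and 16.8 in untreated WT cells. H3K27Ac on the start site was called in 4 lists and missed in untreated Rescue cells (46.7 and 3.5) and treated KO cells (4.9 and 27.8). In untreated Rescue cells a second H3K27Ac peak of the same merged site was called beside it, with 45.1 and 41.1, so that only treated KO cells lacked a call over −3.5 to 4.0 kb. The acetylated site called in all 6 lists lay 41.2 to 45.9 kb from the start site, past the end of the gene at chr2:28657018-28661664, with 70.1 and 109 in treated Rescue, 49.5 and 57.3 in untreated Rescue, 48.4 and 48.7 in treated KO, 30.4 and 34.2 in untreated KO, 29.5 and 33.9 in treated WT and 36.5 and 23.8 in untreated WT cells. No IgG peak met it.

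Inside FOSL2, at chr2:28631624-28632602, treated WT cells had a RAD21 peak (27.8 and 17.9) and a PDS5A peak (19.9 and 14.7) at 15.8 to 16.8 kb. No other list held a deposited peak of either antibody there, and no IgG list did. A RAD21 peak at −6.0 to −4.8 kb, with 19.9 and 10.4, was also found in treated WT cells alone. The treated WT list was the longest RAD21 list, with 38829 deposited peaks against 15525 to 26315 in the other 5.

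When the peaks of the 6 lists were merged into sites, 49 H3K27Ac, 40 RAD21 and 51 PDS5A sites lay near the genes. Of these, 6 H3K27Ac sites (12.2%), 6 RAD21 sites (15%) and 3 PDS5A sites (5.88%) were called in all 6 lists. Over the whole lists 2.09% of merged H3K27Ac sites, 3.9% of RAD21 sites and 0.983% of PDS5A sites were. Called peaks near the genes were wider than those of the lists, and the windows were built around genes. The part of width and place in these shares was not tested. FOS held 2 of the 6 H3K27Ac sites, 4 of the 6 RAD21 sites and 2 of the 3 PDS5A sites. At the other end, 26 of 49 H3K27Ac, 21 of 40 RAD21 and 25 of 51 PDS5A sites were called in no list. The same share over the whole lists was not computed, so whether these are many or few cannot be said.

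Osimertinib was set against no treatment within each genotype, to ask whether resistance selection came with other chromatin at these genes. Near the 6 genes the called peaks were split almost evenly between treated and untreated lists for H3K27Ac. Treated cells had 22 and untreated cells 19 in Rescue (53.7% treated, interval 37.4 to 69.3, against 47.8% over the whole lists), 16 and 17 in KO (48.5%, 30.8 to 66.5, against 60.8%) and 14 and 14 in WT (50%, 30.6 to 69.4, against 66.7%). RAD21 had 16 treated and 14 untreated peaks in Rescue (53.3%, 34.3 to 71.7, against 54.7%), 8 and 12 in KO (40%, 19.1 to 63.9, against 44.9%) and 19 and 8 in WT (70.4%, 49.8 to 86.2, against 81.9%). PDS5A had 18 and 19 in Rescue (48.6%, 31.9 to 65.6, against 44.9%), 11 and 5 in KO (68.8%, 41.3 to 89.0, against 81.8%) and 14 and 5 in WT (73.7%, 48.8 to 90.9, against 87.7%). With both lists cut to the length of the shorter, the PDS5A shares were 37.5% in WT cells (3 treated and 5 untreated), which turned the direction, and 50% in KO cells (5 and 5), and the RAD21 share in WT cells was 50% (8 and 8). Over full lists, the whole-list share lay inside the interval in each of these 9 comparisons. For this measure, the share lying in the treated list, no difference between the AP-1 genes and the lists was detectable at these counts.

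Few called treated peaks arose where the untreated list was empty. Of those near the genes, 13 of 52 H3K27Ac peaks had no called untreated counterpart (25%, against 48.4% over the lists), 14 of 43 RAD21 peaks (32.6%, against 58.6%) and 19 of 43 PDS5A peaks (44.2%, against 60%). Without any deposited untreated peak were 1 H3K27Ac peak (1.92%, against 11.3%), 4 RAD21 peaks (9.3%, against 24%) and 4 PDS5A peaks (9.3%, against 20.7%). Wider peaks meet a counterpart more easily. The part of width and place in these shares, and in the counterpart shares of KO and Rescue cells below, was not tested. By site, a call was gained under osimertinib in at least 2 genotypes at 2 H3K27Ac sites, the JUN start site and −25.4 to −21.1 kb of JUND, and lost at 1, the site upstream of FOS. RAD21 gained 2 such sites, 14.4 to 15.2 kb past JUN and 7.3 to 10.9 kb past the FOSL1 start site. PDS5A gained 5, the start sites of JUN and FOS, −3.1 to 3.3 kb and −14.3 to −11.6 kb of JUNB and 24.1 to 26.4 kb past the FOS start site. In treated KO cells the call at −3.1 to 3.3 kb of JUNB came from a peak beside the start site (15.2 and 16.6), and the peak on the start site itself was uncalled (13.9 and 4.1). Neither RAD21 nor PDS5A lost any in 2 or more genotypes. At the JUN start site the remaining genotype lost the call instead, KO for H3K27Ac and WT for PDS5A. KO cells likewise lost the RAD21 call at 7.3 to 10.9 kb past the FOSL1 start site. The share of sites gaining or losing calls in this way over the whole lists was not computed. In KO and WT cells the treated PDS5A list was far longer than the untreated one, as was the RAD21 list in WT cells, and at equal list length none of these 3 splits stayed on the treated side.

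KO cells were set against WT cells in each treatment. Under osimertinib H3K27Ac had 16 near-gene peaks in KO and 14 in WT cells (53.3% in KO, 34.3 to 71.7, against 45.5% over the lists), RAD21 8 and 19 (29.6%, 13.8 to 50.2, against 20.8%) and PDS5A 11 and 14 (44.0%, 24.4 to 65.1, against 24.5%). Untreated, H3K27Ac had 17 in KO and 14 in WT cells (54.8%, 36 to 72.7, against 51.8%), RAD21 12 and 8 (60%, 36.1 to 80.9, against 59.3%) and PDS5A 5 and 5 (50%, 18.7 to 81.3, against 34.1%). The RAD21 split near the genes thus lay on the WT side under osimertinib and on the KO side without it, as it did over the whole lists. Of the near-gene peaks called in WT cells, 8 of 28 H3K27Ac peaks had no called KO counterpart (28.6%, against 49.1%), 12 of 27 RAD21 peaks (44.4%, against 67.3%) and 9 of 19 PDS5A peaks (47.4%, against 72.2%). Of these 0 (against 10.7%), 4 (14.8%, against 28.5%) and 1 (5.26%, against 25.2%) had no deposited KO peak either.

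Rescue cells were set against KO cells, which asks what overexpressed METTL7A adds on the knockout background. Under osimertinib H3K27Ac had 22 near-gene peaks in Rescue and 16 in KO cells (57.9% in Rescue, 40.8 to 73.7, against 60.9% over the lists), RAD21 16 and 8 (66.7%, 44.7 to 84.4, against 71.7%) and PDS5A 18 and 11 (62.1%, 42.3 to 79.3, against 73.7%). Untreated, H3K27Ac had 19 and 17 (52.8%, 35.5 to 69.6, against 72.4%), RAD21 14 and 12 (53.8%, 33.4 to 73.4, against 63.1%) and PDS5A 19 and 5 (79.2%, 57.8 to 92.9, against 93.9%). The untreated H3K27Ac and PDS5A shares were the 2 of 21 whose interval did not hold the whole-list share, and both lay below it. Neither held under every alternative: without peaks on IgG peaks the H3K27Ac share was 83.3% (5 in Rescue and 1 in KO cells), and with both lists cut to the shorter one the PDS5A share was 44.4% (4 and 5). Of peaks called in Rescue cells, 17 of 41 H3K27Ac peaks had no called KO counterpart (41.5%, against 60.8%), 12 of 30 RAD21 peaks (40%, against 58.2%) and 22 of 37 PDS5A peaks (59.5%, against 82.9%). Without a deposited KO peak were 2 (4.88%, against 11.7%), 1 (3.33%, against 12.7%) and 7 (18.9%, against 36.5%).

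**Figure D5:**
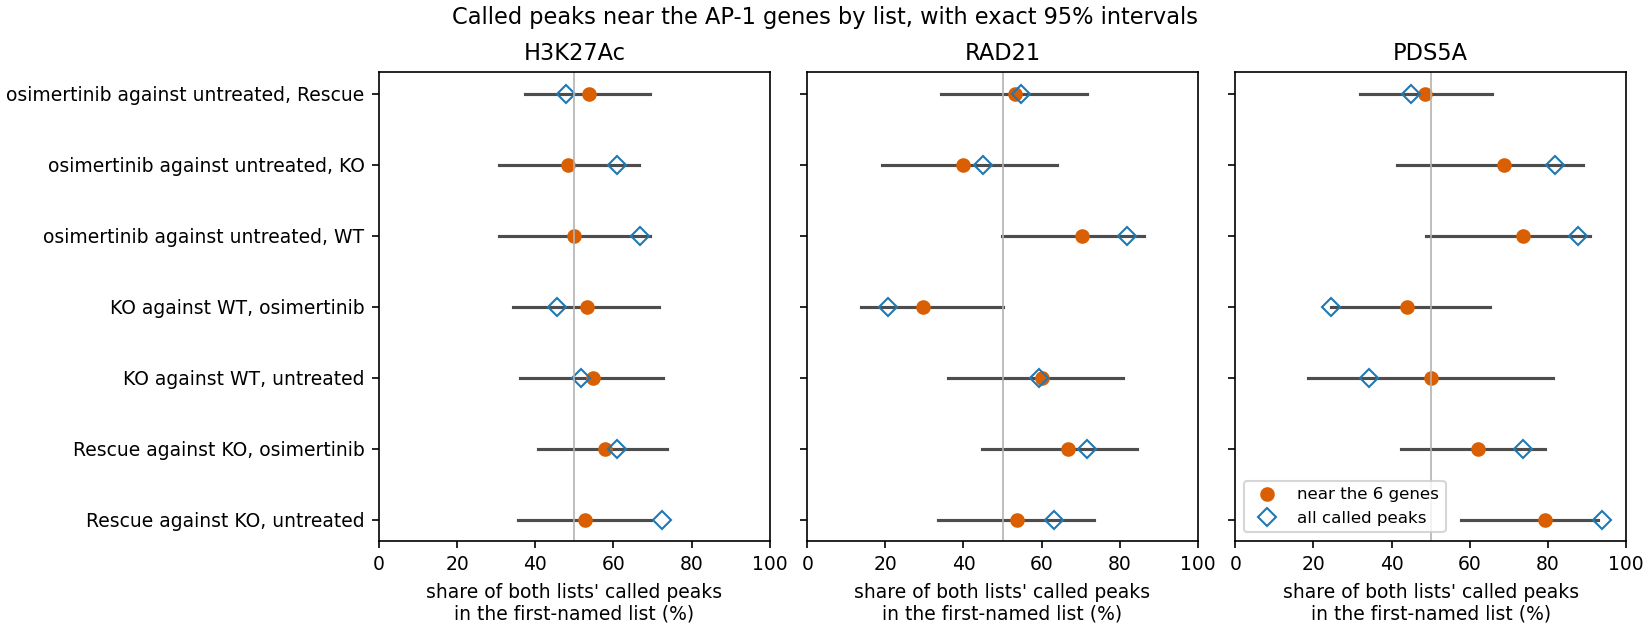
Near-gene called peaks by comparison. Filled circles give the share of both lists' called peaks near the 6 genes that lay in the first-named list, in percent, with exact 95% intervals as bars, and open diamonds give the same share over all called peaks. The diamond lies inside the bar in 19 of 21 comparisons, the exceptions being H3K27Ac and PDS5A of untreated Rescue against untreated KO cells.

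Sites called in treated Rescue and treated WT cells, which have METTL7A, but not in treated KO cells were counted as well. Among the near-gene sites called in both, 2 of 9 H3K27Ac sites were not called in KO cells (22.2%, against 33.7% over the lists), 7 of 15 RAD21 sites (46.7%, against 59.2%) and 4 of 11 PDS5A sites (36.4%, against 61.4%). All 3 shares lay below those of the lists, and the part of peak width and place in this was not tested. The H3K27Ac sites were the JUN and FOSL2 start sites. The RAD21 sites were the JUN start site and 14.4 to 15.2 kb past it, −3.0 to 3.3 kb and −14.2 to −12.1 kb of JUNB, −20.4 to −18.8 kb of FOS, and both FOSL1 sites at 7.3 to 10.9 and 15.2 to 16.2 kb. The PDS5A sites were −17.1 to −15.3 kb of JUNB, −20.3 to −17.8 kb and 24.1 to 26.4 kb of FOS, and 14.8 to 16.4 kb of FOSL1. All but 1, the RAD21 site at 15.2 to 16.2 kb of FOSL1, met a deposited KO peak. In the opposite pattern, sites called under osimertinib in KO cells and in neither other genotype, H3K27Ac had 2 (JUND at −13.4 to −9.7 kb, FOSL2 at 9.3 to 17.3 kb), RAD21 0 and PDS5A 1 (FOSL1 at −20.1 to −17.9 kb). For this pattern no share over the lists was computed, so its counts cannot be set against those above. The treated KO lists were also shorter, with 4372 called RAD21 and 4089 called PDS5A peaks. Treated WT cells had 16655 and 12573, and treated Rescue cells 11103 and 11466.

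PDS5A near these genes lay on RAD21 peaks, as most called PDS5A peaks did over the lists. Of 72 called PDS5A peaks, 54 met a called RAD21 peak of the same cells (75.0%, against 63.3% over the lists) and all 72 a deposited one (90.5% over the lists). Of 77 called RAD21 peaks, 52 met a called PDS5A peak (67.5%, against 56.6%) and 44 a called H3K27Ac peak (57.1%, against 38.2%). Of 102 called H3K27Ac peaks, 44 met a called RAD21 peak (43.1%, against 33.6%). An overlap needed only 1 bp, and called peaks near the genes were wider than those of the lists. Median widths by list were 1415 to 1855 bp near the genes for RAD21, against 987 to 1111 bp for all called peaks. For PDS5A they were 1371 to 2137 bp, against 1012 to 1166 bp. The part of width in these overlaps was not tested.

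IgG was more frequent under the called peaks here than over the lists. The called peaks near the genes were also wider than those of the lists, and the part of width in this was not tested. A deposited IgG peak of any list lay under 75 of 102 called H3K27Ac peaks (73.5%, against 43.6%), 44 of 77 RAD21 peaks (57.1%, against 39.9%) and 47 of 72 PDS5A peaks (65.3%, against 35.2%). In the same cells it lay under 29, 23 and 25 of them. Nearly all of these IgG peaks were over the IDR limit, and 25 of the 56 near the genes came from treated WT cells. The part of IgG background in the start-site calls was not tested. Of the sites that met no IgG peak, RAD21 past JUNB, RAD21 at 24.2 to 25.4 and 27.9 to 29.8 kb of FOS, PDS5A at 27.6 to 29.7 kb of FOS and H3K27Ac past FOSL2 were called in 6 lists. RAD21 past JUN was called in 2, RAD21 at 15.2 to 16.2 kb of FOSL1 in 3, and RAD21 and PDS5A inside FOSL2 in 1 each.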

How the data were processed

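CUT&RUN was run on PC9 cells with 2 samples per group. Per the submitters' processing notes, the authors used MACS2 2.2.7.1 on GRCh37, with Bowtie2 2.4.2, bedtools 2.30, deepTools 3.5.1, SAMtools 1.16, Trimmomatic and FastQC. The cutoff and control used for calling, which IDR release was run and in what order the steps came are not given in the sources used here. The deposited lists hold, for peaks matched between replicates, 2 −log10 p values, 1 per replicate, and a −log10 global IDR, as the authors wrote them. Per the labels, every library was planned at the same read depth; the lists carry no totals, so depth is unknown. Neither the labels nor the files say whether the replicates were separate cultures or which sample is first in a file.

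Peaks on chromosomes 1 to 22 and X were used, and 90 on other sequences were left out. Called meant a global IDR of 0.05 or less (−log10 of 1.301), and peaks sharing at least 1 bp counted as overlapping. Gene positions on GRCh37 came with the rule for the members; no GRCh37 annotation was at hand, so other AP-1 genes were not used. Strands followed RefSeq, except FOSL1's, which is general knowledge. Neighbours came from RefSeq on GRCh38.p14. The members, lists and motifs were chosen with earlier results of these data known.

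Sites named by position were those called in all 6 lists or in 1, those whose call moved the same way under osimertinib in 2 or 3 genotypes, and those where KO differed from both other genotypes, at most 2 of a kind per gene and antibody. Other sites named were chosen after their values were seen. The overlap code was tested on simulated data. Scripts ran on Python 3.11.15 with scipy 1.17.1, pandas 2.3.3, matplotlib 3.10.9 and numpy 2.4.6. The alternatives were other IDR limits, windows and overlaps, peaks on IgG peaks left out, lists of equal length and called peaks at the bounds of each replicate.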

Additional observations from a re-analysis of the deposited data

Results flagged for a closer look

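The number of called peaks near the 6 genes moved in different directions between genotypes when osimertinib-treated lists were set against untreated ones. Treated minus untreated, RAD21 differed by 2 in Rescue, by -4 in KO and by 11 in WT cells. PDS5A differed by -1 in Rescue, by 6 in KO and by 9 in WT cells. H3K27Ac differed by 3 in Rescue, by -1 in KO and by 0 in WT cells. These differences between genotypes were not tested. The lists as wholes moved the same way as the near-gene RAD21 and PDS5A peaks in each genotype. For H3K27Ac they did not: near the genes the treated share was 53.7% in Rescue cells, against 47.8% over the lists. It was 48.5% against 60.8% in KO cells and 50% against 66.7% in WT cells.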

How the results depend on the processing

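No paired analysis was possible because the results come from no test and each list joins replicates 1 and 2. The 21 shares were recomputed under 9 alternatives, and 184 of 189 values lay inside the interval of the value reported. The 21 values at the peak bounds of each replicate kept the joint calls and changed only where peaks began and ended. Those values could hardly move. Leaving out peaks on IgG peaks moved 3 H3K27Ac shares: to 83.3% in KO cells under osimertinib against untreated (5 and 1 peaks), to 20.0% in untreated KO against WT cells (1 and 4) and to 83.3% in untreated Rescue against KO cells (5 and 1). Cutting both PDS5A lists to the shorter one moved 2, to 37.5% for treated against untreated WT cells (3 and 5 peaks) and to 44.4% for untreated Rescue against KO cells (4 and 5), which turned the direction; the shorter list by construction holds fewer peaks. Counting as absent only peaks with no deposited counterpart lowered the 9 counts. Under osimertinib they were 1 for H3K27Ac, 4 for RAD21 and 4 for PDS5A, in KO-absent WT peaks 0, 4 and 1, and in KO-absent Rescue peaks 2, 1 and 7. An overlap of 50% of the shorter peak left all 9 as they were. Leaving out peaks on IgG peaks took to 0 all 15 start-site counts that were above 0, since every start site meets an IgG peak in some list, so start-site calls rest on places with background. A start-site count moved if it changed by over 1.5 times or to or from 0. By that rule, counting every deposited peak moved 9 of the 18 start-site counts and an IDR of 0.01 moved 2. Smaller changes came on top. At an IDR of 0.01 H3K27Ac fell from 6 to 4 lists for JUND and FOSL1 and from 6 to 5 for FOS. RAD21 at FOS also fell from 6 to 5. Taking the called peaks at the bounds of the first replicate moved 1, and at those of the second moved 0. At the bounds of the second, H3K27Ac at JUN and PDS5A at JUNB fell from 3 to 2. These calls still came from both replicates. Depth per library is unknown and limits every list.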
